A study of Mus musculus with 2 samples.

Results

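Catecholamines are made, stored, taken back up and broken down by a short chain of proteins, and the transcripts of 8 of them were followed here: Gch1, Th, Ddc and Dbh for synthesis, Slc18a2 for vesicle loading, Slc6a2 for reuptake, and Maoa and Maob for breakdown. The genes were taken by symbol from the 33207 genes of both count tables, and all 8 were present. The cells came from Egr2Cre/+; R26-Tomato mouse embryos (genotype label "Egr2,R26mT") at the embryonic stages E11.5 or E12.5. Meninges, labelled as the tissue, were dissected with the dorsal root ganglia and the dorsal and ventral roots, Tomato-positive cells were sorted by FACS, and each stage was 1 library (10x 3' V2 kit) from 1 pooled litter, so stages and classes are compared with no replicate and with intervals for counting error only. Both libraries carried Egr2-Cre and the reporter. The Cre is driven from Egr2 (Krox20), which marks boundary cap cells, the label given to these cells. The trace also marks their descendants, so a sorted cell may no longer transcribe Egr2. Tomato itself was not counted, and cells not sorted as Tomato-positive or traced with another Cre were not analysed here.

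Tyrosine hydroxylase (Th) converts tyrosine to L-DOPA and is the rate-limiting step. It needs tetrahydrobiopterin, whose synthesis starts with GTP cyclohydrolase (Gch1). Aromatic L-amino acid decarboxylase (Ddc) turns L-DOPA into dopamine, and also makes serotonin from 5-hydroxytryptophan. Dopamine beta-hydroxylase (Dbh) makes noradrenaline inside vesicles that the vesicular monoamine transporter (Slc18a2, VMAT2) fills. The noradrenaline transporter (Slc6a2) retrieves the released amine, and the mitochondrial monoamine oxidases A and B (Maoa, Maob) degrade it. Sympathetic neurons and chromaffin cells, both neural crest derivatives, use the whole chain, while a subset of dorsal root ganglion neurons, the C-fibre low-threshold mechanoreceptors of the adult, is known to contain Th.

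After removal of barcodes with over 10% mitochondrial UMIs, shallow barcodes and predicted doublets, 833 of 1431 barcodes remained at E11.5, with a median of 11601 UMIs (unique molecular identifiers, 1 per captured transcript), and 3496 of 3762 at E12.5, with a median of 6140. Clustering was run without the 8 genes and without the pathway genes described below. At E11.5 it gave 545 glia-like and 227 neuron-like cells, and at E12.5 these classes held 1658 and 1352 cells. The 13 glial markers summed to 3904 CPM (UMIs scaled to a class total of 1000000) in the former class and 310 CPM in the latter at E11.5, and to 7367 and 321 CPM at E12.5. The 19 neuronal markers summed to 488 against 10093 CPM and to 497 against 13865 CPM, so the sort held more than the labelled cell type. Pericyte-like cells numbered 61 and 41 in the earlier and later library, and the later one further held 182 mesenchymal-like, 36 myeloid-like and 227 unnamed cells led by Dll1 and Neurog1. The libraries shared 9 deposited barcodes, 7 of them kept. Clusters 6 and 8 to 10 at E11.5 and 11 and 12 at E12.5 rested on few markers or, for cluster 8, on shallow cells with a median of 2814 UMIs. Of 7 sympathoblast markers, 5 were detected in neuron-like cells at E12.5, at 452 CPM in all, and 4 in glia-like cells, at 7.78 CPM (315 and 5.59 CPM at E11.5). The defining transcription factor genes Hand1 and Hand2 were at 0 in both classes and stages, and Phox2a had 1 UMI.

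The genes lie on 7 chromosomes of GRCm39 (mm39), the build to which the reads were aligned: Th on 7 (142443466 to 142484865), Ddc on 11 (11762602 to 11848150), Dbh on 2 (27055245 to 27074212), Gch1 on 14 (47391346 to 47426915), Slc18a2 on 19 (59249238 to 59284695) and Slc6a2 on 8 (93686707 to 93728295). Maoa (16485893 to 16554057, plus strand) and Maob (16574807 to 16683686, minus strand) are neighbours on the X chromosome. They point towards each other with a gap of 20749 bases between their ends, so each has its own start. No member overlapped a counted gene on its own strand; on the other strand, Slc18a2 overlaps Pdzd8, Ddc overlaps 1700042O10Rik and Dbh overlaps Dbhos. Of Th, Ddc and Maoa, the first was higher in neuron-like cells at E12.5 and the others in glia-like cells at both stages. Upstream sequence is shown for these genes, read from GRCm39. It stops where an exon of any annotated transcript begins, except for the last 4 bases of Maoa, which complete a motif, and for Th, of which 30 bases are shown from a region that other transcripts hold as exon. Capitals mark the cAMP response element TGACGTCA in Th and a GC box, GGGCGG on either strand, in Maoa. In Ddc they mark a match to the TATA box letters TATAAA, on the other strand and so printed as their reverse complement. Whether this match acts as a TATA box was not tested. The pieces lie at chr7:142453759-142453788 (Th, minus strand), chr11:11848151-11848400 (Ddc, minus strand) and chrX:16485687-16485896 (Maoa, plus strand).
Th: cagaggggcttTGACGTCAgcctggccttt
Ddc: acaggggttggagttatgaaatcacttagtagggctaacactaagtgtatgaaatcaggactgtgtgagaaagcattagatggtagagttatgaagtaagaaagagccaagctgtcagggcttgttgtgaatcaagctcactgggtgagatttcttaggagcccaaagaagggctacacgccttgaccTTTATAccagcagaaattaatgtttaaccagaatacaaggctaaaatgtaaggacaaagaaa
Maoa: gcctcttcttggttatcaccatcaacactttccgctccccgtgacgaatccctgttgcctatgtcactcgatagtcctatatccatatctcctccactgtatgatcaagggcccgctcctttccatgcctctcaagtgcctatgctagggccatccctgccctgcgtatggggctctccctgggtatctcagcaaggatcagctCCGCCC

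Within the 250 bases before the annotated canonical start, the Th response element covered bases 26 to 19 and stood alone among the 8 genes; 1.69% of 21770 protein-coding promoters of that length held one on either strand. The Th window also held 1 GC box. The Ddc window held a TATAAA at bases 62 to 57, a motif found in 11.9% of promoters, and no GC box. Its GC content was 40.8%, against 63.2% for Th, 56.8% for Maoa and a median of 53.2% over all promoters. Maoa held 1 GC box, a motif present in 36.3% of promoters. Ddc has 12 annotated coding start sites and Th 7, and 3' counts do not show which was used, so these windows describe sequence near 1 start each.

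Of the synthesis genes, Th was higher in neuron-like cells at E12.5, mostly in 1 cluster, and Ddc was higher in glia-like cells at both stages. Gch1 was sparse in both classes and Dbh was near the limit of detection. At E11.5 Th had 3 UMIs in 3 of 227 neuron-like cells and 1 UMI in 545 glia-like cells. The next stage gave 176 UMIs in neuron-like cells, 19.3 CPM (95% Poisson interval 16.6 to 22.4), and 9 UMIs in glia-like cells, 0.876 CPM (0.400 to 1.66). The neuron-like level was 22.1-fold the glia-like one (11.4 to 49.1). Th was found in 87 neuron-like cells, 6.43% (exact interval 5.19 to 7.88), and in 9 glia-like cells, 0.543% (0.249 to 1.03), at median depths of 6474 and 5880.5 UMIs per cell. Thinned to 2000 UMIs per cell, which dropped 61 neuron-like cells and 81 glia-like ones, the shares were 2.32% and 0.127%. Without the weakly named clusters the neuron-like share was 8.57%. All 9 Th-positive glia-like cells held a single UMI. These 9 cells carried 97.2 glial and 4.86 neuronal marker UMIs per 10000, against 64.3 and 4.08 in the other glia-like cells, so their neuronal marker level was close to that of the rest. The 182 mesenchymal-like cells had 0 Th UMIs, so by the 3-count limit a Th UMI could be detected in up to 1.65% of such cells.

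Th was not spread evenly over neurons. Of the 87 positive neuron-like cells, 45 held 1 UMI, 15 held 2 and 27 held 3 or more, up to 9. Cluster 0 of E12.5, led by Sncg, Nrxn3, Gal and Prph, made up 11.02% of neuron-like cells and held 80.1% of their Th UMIs, with Th in 62 of its 149 cells (41.6%, 33.6 to 49.96) at 116 CPM (97.5 to 137). Cluster 2, led by Ccer2 and Stmn4, followed with 16 of 211 cells at 13.5 CPM (8.63 to 20.05), and cluster 1 with 8 of 348 cells at 4.29 CPM (2.06 to 7.89). The intervals of these 3 clusters did not overlap one another. Clusters 7 and 11 had 0 Th UMIs and cluster 12 had 1.

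Ddc had the opposite distribution. The E11.5 library held 81 Ddc UMIs in glia-like cells, 12.9 CPM (10.3 to 16.1), and 2 among neuron-like ones, 0.735 CPM (0.0890 to 2.66), a ratio of 17.6 (4.71 to 148). At E12.5 there were 179 UMIs in glia-like cells, 17.4 CPM (15.0 to 20.2), and 6 in neuron-like cells, 0.659 CPM (0.242 to 1.43), a ratio of 26.4 (11.9 to 73.0). Glia-like cells positive for Ddc were 65 of 545 at E11.5 (11.9%, 9.33 to 14.9) and 152 of 1658 a day later (9.17%, 7.82 to 10.7), against 2 of 227 and 6 of 1352 neuron-like cells (0.881% and 0.444%). Thinned to 2000 UMIs, 3.68% of glia-like cells and 0 of 1291 neuron-like cells were positive at E12.5. Of the 152 positive glia-like cells, 130 held 1 UMI and none more than 3. Ddc was also found in 1 of 182 mesenchymal-like cells (0.549%, 0.0139 to 3.02, median depth 5756.5 UMIs). That share rests on 1 UMI, so it cannot show whether the Ddc counts of neuron-like cells are background.

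Among glia, Ddc was concentrated in a few clusters. At E11.5, cluster 7, with Pde7b, Gfra3 and Egfl8 among its leading genes, had Ddc in 43 of 139 cells (30.9%, 23.4 to 39.3) at 31.6 CPM, and held 70.4% of the glia-like Ddc UMIs. The other E11.5 glia-like clusters were between 0 CPM (cluster 6) and 10.1 CPM (cluster 8, on 3 UMIs). At E12.5 cluster 4, led by Slc36a2, Gria2, Col20a1 and Prss56, had 46.2 CPM (37.5 to 56.3) with 77 of 443 cells positive, and the cell cycle cluster 15, led by Aurkb, Kif23 and Ccnb1, had 27.4 CPM (19.6 to 37.1) with 37 of 185 cells positive. The other cluster led by cell cycle genes, 8, had 5.96 CPM (2.58 to 11.8). Cluster 9, led by Cntn3, Dcc and Mybpc1, had 1 positive cell of 159. Across the 12 glia-like clusters of both stages, correlations were taken on log2(CPM + 1). Ddc correlated with the boundary cap gene Egr2 (Pearson's r = 0.73, Spearman's rho = 0.75) and with Prss56 (r = 0.59, rho = 0.60). These values are a description over clusters that share libraries and depth.

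Gch1 had 10 lineage UMIs in the E11.5 library, 6 of them in glia-like cells. At E12.5 there were 16 UMIs in 16 glia-like cells, 1.56 CPM (0.890 to 2.53), and 12 in 12 neuron-like cells, 1.32 CPM (0.681 to 2.30), a ratio of 1.18 (0.525 to 2.74), so a difference of up to 2.74-fold could not be seen at this depth. No lineage cell held more than 1 UMI. The 36 myeloid-like cells had 6 Gch1 UMIs in 4 cells (11.1%, 3.11 to 26.1), 20.2 CPM, above both lineage classes. Dbh had 0 UMIs at E11.5 in either class; by the 3-count limit, a UMI could be detected in up to 0.550% of the glia-like and 1.32% of the neuron-like cells, which sets no limit on cells with undetected transcripts. The E12.5 library held 5 UMIs in 5 glia-like cells (0.302%, 0.0980 to 0.702) and 4 in 4 neuron-like cells (0.296%, 0.0807 to 0.756), and 1 UMI in 182 mesenchymal-like cells (0.549%). The 227 unnamed cells had 0 Dbh UMIs, and the mesenchymal-like share rests on 1 UMI. With similar shares in glia-like and neuron-like cells and so few UMIs, these counts could not be told from background. They show neither presence nor absence of the enzyme's transcript in single cells.

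The transporter genes were rare. Slc18a2, which loads vesicles, had 3 UMIs in each class at E11.5. A day later it had 19 UMIs in 19 of 1352 neuron-like cells (1.41%, 0.848 to 2.19), 2.09 CPM (1.26 to 3.26), and 4 UMIs in 4 of 1658 glia-like cells (0.241%, 0.0658 to 0.616), 0.389 CPM (0.106 to 0.996). The neuron-like level was 5.36-fold higher (1.78 to 21.7), on 23 UMIs in all. Thinned to 2000 UMIs, the shares were 0.775% and 0.127%. Among neuron-like clusters Slc18a2 was highest in cluster 7, at 4.18 CPM (1.68 to 8.62, 7 UMIs), a cluster with 0 Th UMIs; its interval overlapped those of the other clusters. Slc6a2, the reuptake transporter, had 1 UMI in the earlier and 4 in the later library, 2 of these in each class and none of them in the same cell, which is at the limit of detection.

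**Figure D1:**
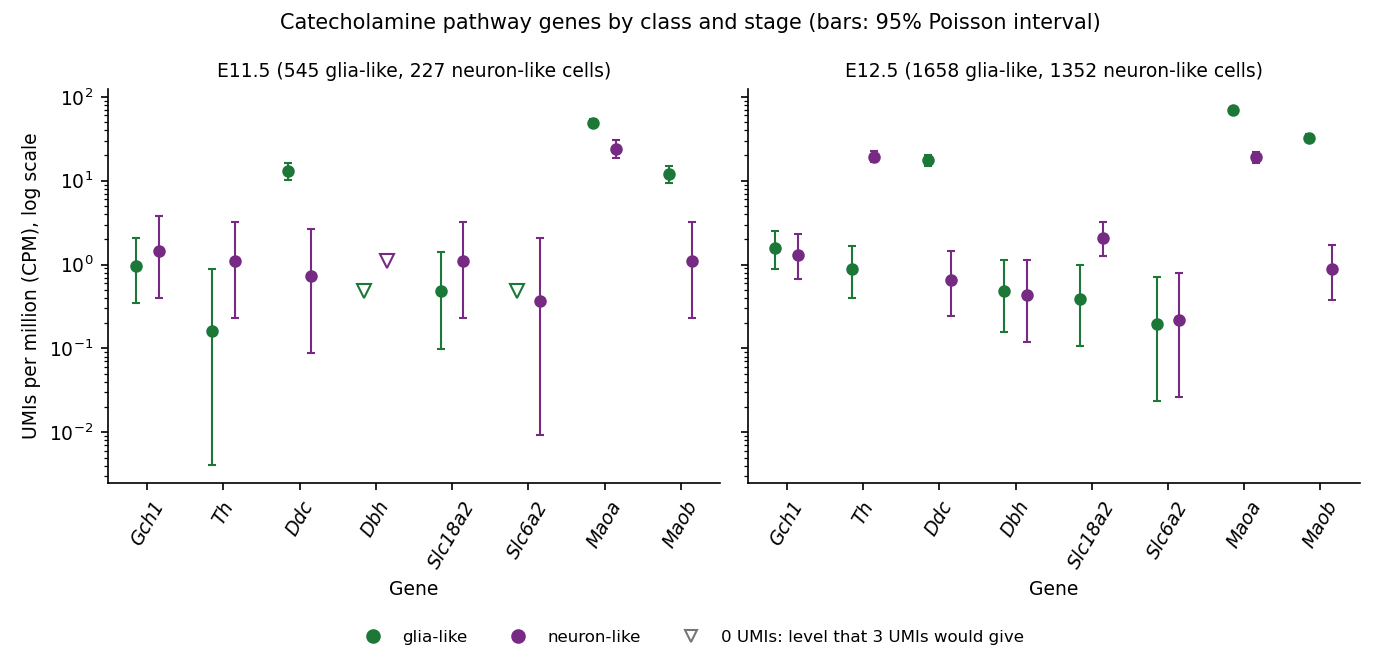
Summed level of each gene in glia-like (green) and neuron-like (purple) cells, in CPM on a log axis, at E11.5 (left) and E12.5 (right); bars are 95% Poisson intervals and open triangles mark genes with 0 UMIs at the level that 3 UMIs would give. Th stands at 19.3 CPM in neuron-like and 0.876 CPM in glia-like cells at E12.5, whereas Ddc, Maoa and Maob are higher in glia-like cells at both stages.

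Breakdown was the step detected in the largest share of cells. Maoa had 304 UMIs in glia-like cells at E11.5, 48.5 CPM (43.2 to 54.3), and 65 in neuron-like cells, 23.9 CPM (18.4 to 30.4), a ratio of 2.03 (1.55 to 2.70) that fell to 1.82 after thinning, under 2-fold. At E12.5 the values were 724 UMIs, 70.4 CPM (65.4 to 75.8), and 173 UMIs, 19.0 CPM (16.3 to 22.0), a ratio of 3.71 (3.14 to 4.404), or 4.48 without the weakly named or shallow clusters. Maoa transcripts were therefore present on both sides of the lineage. At E11.5 it was found in 39.8% of the glia-like and 22.0% of the neuron-like class, and at E12.5 in 32.1% (29.8 to 34.4) and 11.54% (9.88 to 13.4). Thinned, these were 8.62% and 4.85%, then 12.7% and 4.18%. No class lacked Maoa: mesenchymal-like cells had 43.2 CPM, the E12.5 pericyte-like cells 51.1 CPM, the unnamed cells 36.0 CPM and myeloid-like cells 16.8 CPM on 5 UMIs.

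Maob was nearly restricted to glia within the lineage. Its E11.5 counts were 75 UMIs in glia-like cells, 11.97 CPM (9.42 to 15.0), and 3 in neuron-like cells, 1.10 CPM (0.227 to 3.22), a ratio of 10.9 (3.58 to 53.8). At E12.5 they were 334 UMIs, 32.5 CPM (29.1 to 36.2), and 8 UMIs, 0.878 CPM (0.379 to 1.73), a ratio of 37.0 (18.6 to 86.4). The 2 oxidases therefore differed in how far they were shared with neurons: Maoa stayed at 19.0 CPM there while Maob was at 0.878 CPM. Maob was detected in 252 of 1658 glia-like cells (15.2%, 13.5 to 17.0; thinned 5.39%) and 6 of 1352 neuron-like cells (0.444%, 0.163 to 0.963; thinned 0.155%). Of the 8 neuron-like UMIs, 5 were in 3 cells of cluster 0, the cluster with most Th. Mesenchymal-like cells had Maob in 6 of 182 cells (3.30%) at 6.72 CPM.

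Cluster 9 of E12.5 stood out for both oxidases, with Maob in 66 of 159 cells (41.5%, 33.8 to 49.6) at 98.7 CPM (80.5 to 120) and Maoa at 116 CPM (96.2 to 138). It held 30.8% of the glia-like Maob UMIs with 9.59% of the cells. The other E12.5 glia-like clusters had 18.7 to 37.3 CPM of Maob and 57.1 to 81.9 CPM of Maoa. At E11.5 Maob was highest in cluster 3, led by Lrrc7, Cbln1, Prss56 and Cntn3, with 23 of 91 cells positive at 26.1 CPM (18.0 to 36.6), and low in cluster 7, the Ddc-rich one, with 4 of 139 cells at 2.21 CPM (0.603 to 5.67). The shallow cluster 8 had 0. Over the 12 glia-like clusters, again on log2(CPM + 1), Maoa and Maob had r = 0.64 (rho = 0.57), whereas Ddc and Maob had r = -0.30 (rho = -0.19). The clusters richest in Ddc were not the ones richest in Maob at either stage.

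**Figure D2:**
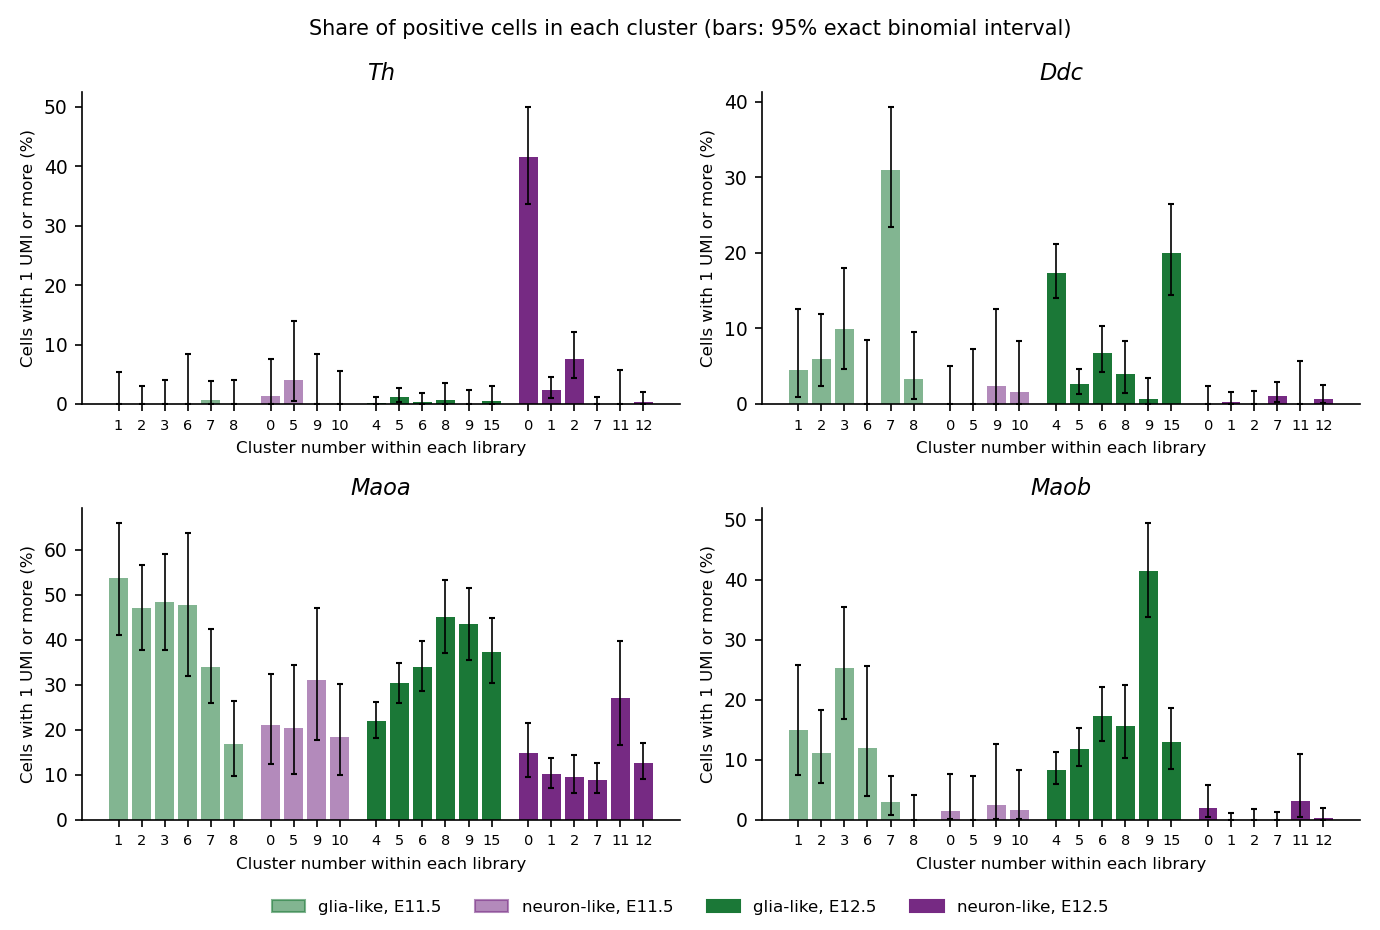
Share of cells with 1 UMI or more of Th, Ddc, Maoa and Maob in each glia-like (green) and neuron-like (purple) cluster at E11.5 (pale) and E12.5 (full colour), in percent with 95% exact binomial intervals. Th peaks at 41.6% in neuron-like cluster 0 of E12.5, Ddc at 30.9% in glia-like cluster 7 of E11.5, and Maob at 41.5% in glia-like cluster 9 of E12.5.

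**Figure D3:**
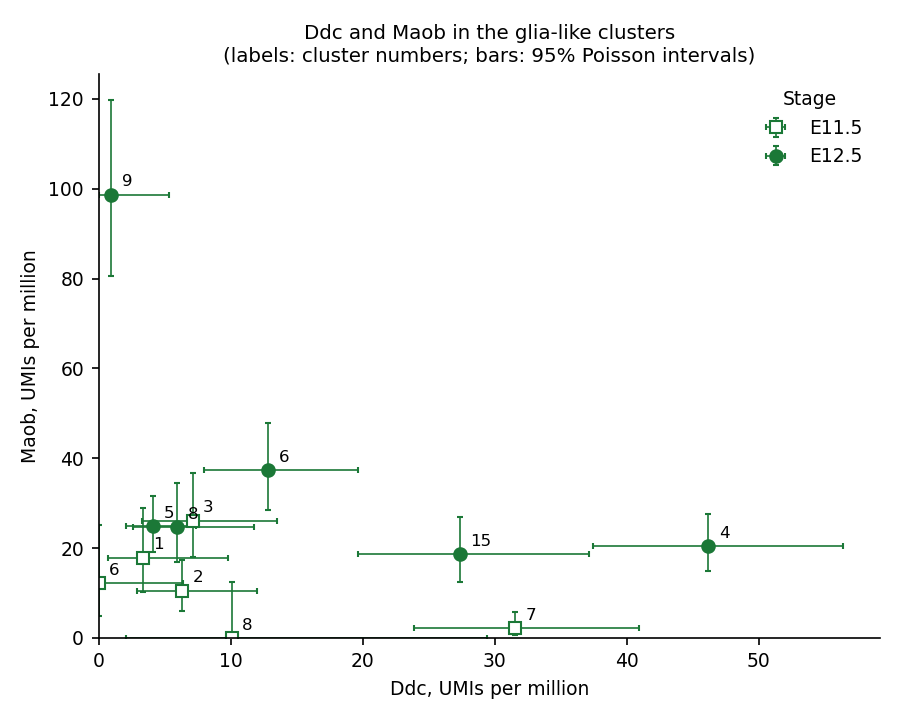
Level of Ddc (x axis) and Maob (y axis), both in CPM, in the 12 glia-like clusters of E11.5 (open squares) and E12.5 (filled circles), with cluster numbers and 95% Poisson intervals. Cluster 9 lies at 98.7 CPM of Maob and 0.958 CPM of Ddc, and clusters 4, 15 and 7 lie at 27.4 CPM of Ddc or more with Maob at 20.5 CPM or less.

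With 50 UMIs or more over both classes required and a 2-fold difference called, 3 members could be compared at E11.5 (Ddc, Maoa, Maob) and all 3 were higher in glia-like cells, where 16.6% of the 10063 genes compared were; 9.41% were higher in neuron-like cells. At E12.5, 4 members could be compared. Ddc, Maoa and Maob were higher in glia-like cells, as were 21.6% of 12228 genes, and Th was higher in neuron-like cells, as were 12.7%. Ddc and Maob, and Th at E12.5, reached the minimum almost only through the class where they were higher. At E12.5 glia-like and neuron-like cells held 179 and 6 UMIs of Ddc, 334 and 8 of Maob, and 9 and 176 of Th. The minimum thus favoured members with a difference, so these calls do not describe the pathway as a whole. The other members, Gch1, Dbh, Slc18a2 and Slc6a2, were under the minimum at both stages.

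Between the stages, Th in neuron-like cells went from 1.10 to 19.3 CPM, a ratio of 17.5 (5.90 to 85.8), while Maoa had 23.9 and 19.0 CPM, a ratio of 0.795 (0.594 to 1.07) that includes 1. In glia-like cells Maob went from 11.97 to 32.5 CPM, a ratio of 2.71 (2.11 to 3.53), Maoa from 48.5 to 70.4 CPM, a ratio of 1.45 (1.27 to 1.67), and Ddc from 12.9 to 17.4 CPM, a ratio of 1.35 (1.03 to 1.77). The median gene moved 1.08-fold in glia-like and 1.05-fold in neuron-like cells. Each stage is 1 library, so stage, litter and library cannot be told apart, and a change within cells cannot be told from a change in which cells made up a class.

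The second question was whether the steps met in the same cells. Of the 3010 glia-like and neuron-like cells at E12.5, 96 held Th, 158 held Ddc and 9 held Dbh. Th and Ddc met in 1 cell, Th and Dbh in 0 and Ddc and Dbh in 0. At E11.5, 4 cells held Th and 67 held Ddc, and 1 cell held both. The cell with both was glia-like at each stage and no cell held all 3 enzymes. At E12.5 the product of the shares gave 0.287 cells for Th and Dbh and 0.472 for Ddc and Dbh. For Th and Ddc the product gave 0.825 cells within glia-like and 0.386 within neuron-like cells. With so few cells to be found, these counts cannot show whether the enzymes were kept apart. Of Th, Ddc, Dbh, Slc18a2 and Slc6a2, 2 or more were found together in 1 of the 772 E11.5 cells. At E12.5 this held for 3 of the 3010 cells, 2 of them neuron-like cells with Th and Slc18a2. No count expected from the shares was taken for this set, so whether 3 is few was not tested. All deposited barcodes together, before any filter, gave the same 1 cell per stage with Th and Ddc.

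Th-positive cells were deeper than the rest, with a median of 9776 against 6126.5 UMIs, which favours finding a second gene in them. Ddc was found in 1 of the 96 (1.04%, 0.0264 to 5.67), against 6.43% of the other lineage cells weighted to the same depths. Maoa was found in 18 (18.8%, 11.51 to 28.005; others 31.4%) and Maob in 5 (5.21%, 1.71 to 11.7; others 11.8%). All 3 shares lay below those of the other cells, of which 1649 were glia-like. Gch1, the cofactor enzyme, was found in 3 (3.12%, 0.649 to 8.86; others 1.09%) and Slc18a2 in 2 (2.08%, 0.253 to 7.32; others 0.363%). Dbh and Slc6a2 were detected in 0 of 96. With 9 Dbh-positive and 4 Slc6a2-positive lineage cells in all, the product of the shares came to 0.287 and 0.128 cells, so these counts cannot show whether the genes meet in 1 cell.

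Compared within neuron-like cells, the lower share of Maoa was gone. The Ddc counts within classes were too few to show whether a lower share remained. Maoa was in 15 of 87 Th-positive cells (17.2%, 9.98 to 26.8) and in 15.5% of the other neuron-like cells at matched depth, and its level was 18.0 against 19.1 CPM (ratio 0.945, 0.527 to 1.58). Th-positive neurons thus held the oxidase at the level of their neighbours, to within that interval. Ddc was detected in 0 of the 87 and in 6 of the 1265 other neuron-like cells (0.474%), where the product of the shares gives 0.386 cells, and in 1 of the 9 Th-positive glia-like cells, where it gives 0.825. Among the 87, Gch1 was in 3 (3.45%, 0.717 to 9.75; others 0.688%), Slc18a2 in 2 (2.30%; others 0.631%), Maob in 2 (2.30%; others 0.732%), and Dbh and Slc6a2 in 0. In cluster 0 all 3 Gch1-positive and both Slc18a2-positive cells were among the 62 with Th, and none among the 87 without, which were shallower. The interval of the Gch1 share began just above its reference share, on 3 UMIs, while the intervals for Slc18a2 and Maob held theirs. After thinning, 0 Th-positive cells held Gch1.

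The Th-positive neurons carried genes of a list of sensory neuron genes. Whether that list separates sensory from sympathetic neurons was not tested. Its transcription factor genes Isl1 and Pou4f1 were found in 98.9% and 88.5% of the Th-positive neurons (others 97.6% and 96.9% at matched depth). The glial gene Sox10 was found in 3.45% (others 10.2%). Of 13 sensory genes, 10 could be compared with the other neuron-like cells and 6 were 2-fold or more higher, with the peripherin gene Prph (234 against 11.1 CPM, ratio 21.2, 16.5 to 27.4), Runx1 (ratio 14.5), the sodium channel gene Scn9a (12.9), the galanin gene Gal (12.4) and the neurotrophin receptor gene Ntrk3 (3.27) among them. Over all 9828 genes compared, 7.54% were higher and 8.33% lower, and Maoa, the single member with enough UMIs, was in neither set. Of the vesicle genes, 3 of the 4 compared were higher: Chgb (37.2 against 9.24 CPM, ratio 4.03, 2.59 to 6.13), Cyb561, which recycles the ascorbate that Dbh uses (ratio 2.26, 1.01 to 4.59), and Chga (ratio 2.16, 1.78 to 2.61). None of 6 cofactor genes passed 2-fold. Slc7a5, a carrier of the precursor amino acids, was lower (12.4 against 29.3 CPM, ratio 0.423, 0.208 to 0.771), as was the aldehyde dehydrogenase gene Aldh2 (ratio 0.301, 0.180 to 0.474), while Comtd1 was higher (ratio 2.53, 1.22 to 4.87). Most Th-positive neurons belonged to cluster 0, and among its own cells, 62 with Th and 87 without, at median depths of 11148.5 and 5807 UMIs, 0 genes of these lists passed 2-fold (Prph 1.99, 1.52 to 2.61; Gal 1.91, 1.48 to 2.49; Scn9a 1.64, 1.22 to 2.23). Over all 3951 genes compared in this cluster, 26 were higher and 26 lower, so 0 from these lists is near that background. How much of the larger ratios over all neuron-like cells came from cluster membership was not tested.

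**Figure D4:**
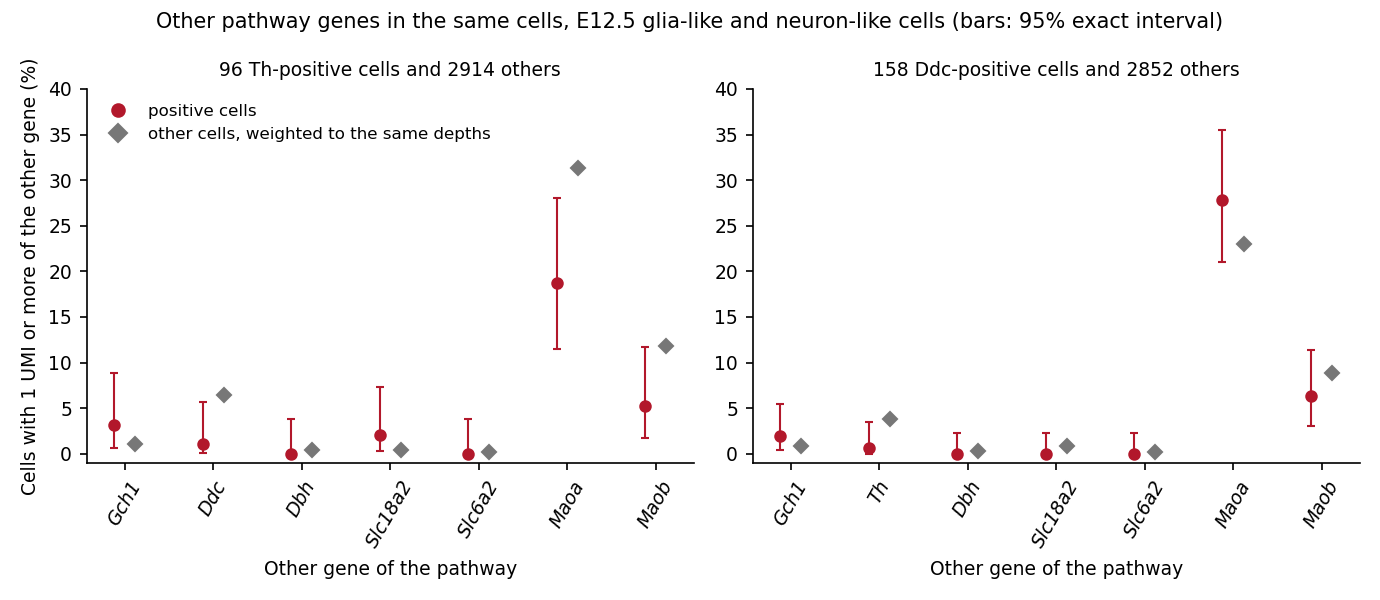
Share of E12.5 glia-like and neuron-like cells with 1 UMI or more of each other gene, in percent, among 96 Th-positive cells (left) and 158 Ddc-positive cells (right; red circles, 95% exact intervals), beside the share in the other cells weighted to the same depths (grey diamonds). Ddc stands at 1.04% of Th-positive cells against 6.43% of the others, both classes pooled. Within neuron-like cells it was detected in 0 of 87 and 0.474%, too few to compare.

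At E12.5 Maob was less often detected in Ddc-positive than in other glia-like cells. At E11.5, on 7 cells with both genes, the interval of its share held the share of the others. Whether the stages differed was not tested. Of the 152 Ddc-positive glia-like cells at E12.5, 10 held Maob (6.58%, 3.20 to 11.8), against 17.1% of the other glia-like cells at matched depth, and its level was 13.0 against 34.6 CPM (ratio 0.374, 0.197 to 0.649). Maoa was in 43 (28.3%, 21.3 to 36.2; others 33.8%) at 52.8 against 72.3 CPM (ratio 0.730, 0.541 to 0.966), which did not pass 2-fold. So 1 of the 2 members compared was called lower and 0 higher, where 2.99% of 10666 genes were lower and 1.46% higher. Within cluster 4, the Ddc-richest, Maob was at 15.0 CPM in Ddc-positive and 21.7 CPM in other cells (ratio 0.692, 0.239 to 1.65, on 43 UMIs). That interval held both equal levels and the ratio found over all glia-like cells. The 152 Ddc-positive cells held Egr2 in 23.0% (others 16.0%) and Prss56 in 30.3% (others 32.9%). At E11.5 the 65 Ddc-positive glia-like cells held Maob in 10.8% (4.44 to 20.9; others 12.3%) and Maoa in 36.9% (25.3 to 49.8; others 51.4%).

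The oxidases met in the same cells at both stages. At E12.5, 107 of 3010 lineage cells held both Maoa and Maob. Of 252 Maob-positive glia-like cells, 105 also held Maoa (41.7%, 35.5 to 48.0), against 33.7% of the others at matched depth. At E11.5, 23 of 55 did (41.8%, 28.7 to 55.9), against 48.4% of the others, so a higher share in Maob-positive cells was seen at E12.5 and not at E11.5, and the difference between stages was not tested. Prss56, a marker of boundary cap cells, was in 42.9% of the E12.5 Maob-positive cells (36.7 to 49.2; others 28.6%), and Ddc in 3.97% (1.92 to 7.18; others 10.8%). Over the 12 glia-like clusters of both stages, Maob had r = 0.32 (rho = 0.39) with Prss56. With Egr2, also a boundary cap gene, it had r = -0.063 (rho = 0.028).

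Taking the steps as groups, a synthesis enzyme (Th, Ddc or Dbh) was detected in 165 of 1658 glia-like cells at E12.5 (9.95%, 8.55 to 11.49) and in 97 of 1352 neuron-like cells (7.17%, 5.86 to 8.68). The enzyme differed: mostly Ddc in the glia-like and mostly Th in the neuron-like cells. A transporter was detected in 6 glia-like (0.362%) and 21 neuron-like cells (1.55%), and an oxidase in 679 glia-like (41.0%, 38.6 to 43.4) and 160 neuron-like cells (11.8%, 10.2 to 13.7). Of the cells with a synthesis enzyme, 53 of the 165 glia-like and 19 of the 97 neuron-like ones also held an oxidase. These counts stand beside an oxidase in 41.0% and 11.8% of all cells of the classes. Depth was not matched here, and whether the steps met more or less often than their shares give was not tested. At E11.5 a synthesis enzyme was found in 65 glia-like (11.9%) and 5 neuron-like cells (2.20%), and an oxidase in 249 (45.7%) and 53 (23.3%).

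The wider pathway, 50 further genes, was compared at the same thresholds. At E12.5, 24 could be compared and 8 were higher in glia-like cells, 7 in neuron-like cells and 9 in neither, beside 21.6% and 12.7% of all genes compared. At E11.5, 18 could be compared and 3 were higher in glia-like cells, 5 in neuron-like cells and 10 in neither, beside 16.6% and 9.41% of all genes, so the glia-like share was near the background. Of the 50 genes, 15 at E11.5 and 5 at E12.5 had 0 UMIs in both classes, beside 13528 and 9598 of all 33207 genes. The E11.5 calls included Spr (ratio 2.34) and Pcbd2 (2.09) in glia-like cells and Chga (39.1), Insm1 (21.3), Slc29a4 (5.53), Aldh1b1 (3.50) and Slc7a5 (2.03) in neuron-like cells. Cofactor genes leaned to glia. At E12.5, 4 of 7 were 2-fold or more higher there, among them Gchfr, whose product inhibits GTP cyclohydrolase (4.28 against 0.878 CPM, ratio 4.87, 2.27 to 11.99), Pcbd2 (3.80) and Pcbd1 (2.37). The synthesis genes Spr (1.98) and Pts (1.22) and the recycling gene Qdpr (1.78) did not pass. Vesicle genes leaned to neurons, where 12.7% of all genes were higher at E12.5, with 4 of 4 compared higher there: Chga (54.1-fold, 32.6 to 97.1), Chgb (24.6-fold, 10.2 to 77.3), Cyb561 (5.23-fold) and Atp6v0a1 (2.24-fold). At E11.5, 1 of 2 was (Chga), and Atp6v0a1 was at 1.94-fold. Pnmt, which makes adrenaline, had 0 UMIs in glia-like and 11 in neuron-like cells at E12.5.

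Downstream of the oxidases, Aldh2, which clears their aldehyde products, was 5.60-fold higher in glia-like cells at E12.5 (372 against 66.4 CPM, 5.14 to 6.12), and the aldehyde reductase gene Akr1b3 2.89-fold. Aldh1b1 was 4.35-fold higher in neuron-like cells (2.67 to 7.41). Of 7 further breakdown genes compared at E12.5, 2 were higher in glia-like cells, 1 in neuron-like cells and 4 in neither. Over all genes compared, 21.6% were higher in glia-like cells. At E11.5, 0 of 6 were higher there, with Aldh2 at a ratio of 1.80 and Akr1b3 at 1.95. Of the membrane transport genes, Slc29a4, a low-affinity monoamine transporter, was 10.3-fold higher in neuron-like cells (6.92 to 16.0), with 27.1 against 2.63 CPM, and the dopamine transporter gene Slc6a3 had 3 UMIs in all. Among 14 receptors, Adra1a was the only one compared and was higher in glia-like cells (12.7 against 1.54 CPM, ratio 8.29, 4.77 to 15.6), and 3 receptors had 0 UMIs. Of the sympathoadrenal transcription factors, Gata2 was higher in glia-like cells (155 against 2 UMIs) and Insm1, which acts in newborn neurons, in neuron-like cells (57.3-fold, 36.0 to 97.1).

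**Figure D5:**
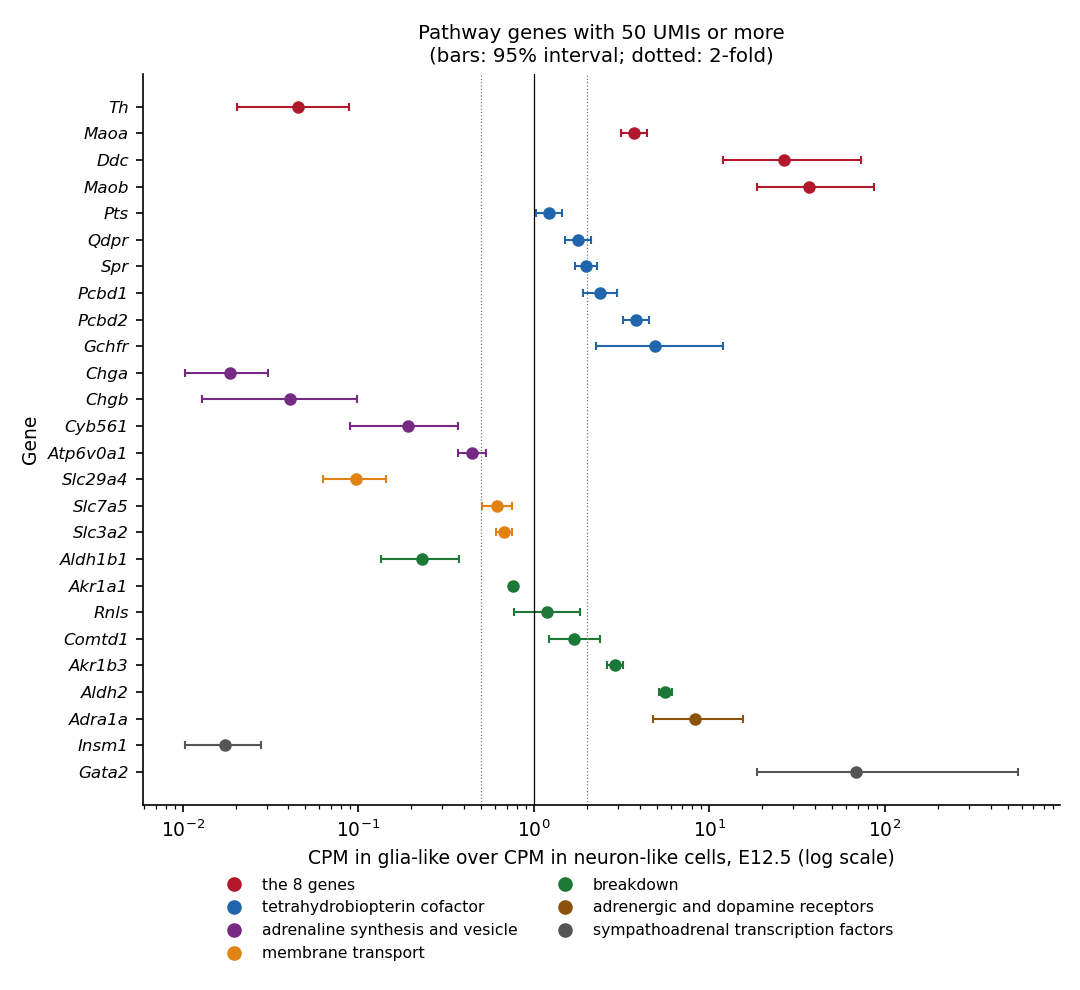
Ratio of the level in glia-like cells to that in neuron-like cells at E12.5, on a log axis, for genes of the pathway with 50 UMIs or more, 2 genes left out, coloured by list; bars are 95% intervals, the solid line marks equal levels and dotted lines 2-fold. Th and the vesicle genes lie to the left, and Ddc, Maob and most cofactor genes to the right of the line.

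Over the 27 clusters of both libraries and among 11928 genes with 100 UMIs or more, the patterns most like that of Th by Pearson's r of log2(CPM + 1) were those of Gal (0.93), Sncg (0.90), Necab2 (0.90), Scn9a (0.89) and Gnat3 (0.89). The patterns most like Ddc were Dlx1 (0.89), Col20a1 (0.89), Gjc3 (0.87), Gpr17 (0.86) and Cuedc2 (0.85). Maoa resembled Hmcn1 (0.91), Creb3l2 (0.90), Npr3 (0.90), Hs6st2 (0.90) and Hey2 (0.90), and Maob resembled Mipep (0.90), Mroh3 (0.89), B130024G19Rik (0.87), Trpm3 (0.87) and Ptn (0.86). No member was among the 5 nearest to another. Between members, Maoa and Maob had r = 0.80, Ddc and Maoa 0.47, Ddc and Maob 0.41 (against -0.30 over the glia-like clusters alone), Th and Ddc -0.27 and Th and Maoa -0.47; the clusters share libraries, and genes are not independent replicates.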

How the data were processed

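UMI counts per gene and cell barcode, as deposited by the authors (filtered Cell Ranger matrices aligned to mm39; the methods name version 7.0.0 and the matrix headers 7.0.1), were used for both libraries. Whether intronic reads were counted is not given in the sources used here. Barcodes with over 10% mitochondrial UMIs, with fewer than 2000 (E11.5) or 1000 (E12.5) UMIs, or with a Scrublet score of 0.2 or more were removed. After scaling to 10000 UMIs per cell and taking logs, each library was clustered alone (scanpy 1.11.5, 3000 variable genes, 30 components, 15 neighbours, Leiden resolution 1) with 79 pathway and sensory genes left out. Clusters were named from marker lists: a marker counted if it was in 20% or more of a cluster's cells, and 3 markers were needed.

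Counts were summed per class. CPM intervals are exact Poisson, shares exact binomial (Clopper-Pearson), and ratios exact conditional intervals, all at 95% and covering counting error only. A count of 0 was given as the share that 3 counts allow. Ratios were called at 2-fold among genes with 50 UMIs or more in both groups together, and shares were also taken after thinning to 2000 UMIs per cell. Reference shares were weighted over 10 depth bins. With 1 library per stage, no test across samples was possible and no p-value is given. Promoters and positions came from the GENCODE annotation of GRCm39. Pathway genes were named by list, and pattern neighbours as the 5 genes with the highest correlation. Some genes of these lists and 1 sequence are not reported here. The members and lists were chosen with earlier results of these data known. The ratio and interval steps were tested on simulated data.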

Additional observations from a re-analysis of the deposited data

How the results depend on the processing

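Across 15 results and 13 alternatives, 167 of 183 values were labelled as unchanged, 16 as moved and 0 as reversed. Ratios and shares were unchanged if they stayed within the counting interval of the reported value. The counts of cells have no interval and were labelled by their closeness to the reported count. Only ratios could be labelled as reversed. The 3 alternatives on weakly named, shallow and unnamed clusters were chosen after seeing the data. Thinned to 2000 UMIs, the Th share of neuron-like cells was 2.32%, the Ddc share of neuron-like cells 0, and the Gch1 share of glia-like cells 0.0634%; of the Th-positive cells left, 0 held Ddc, 3.12% Maoa and 0 Gch1, and 0 cells held 2 or more of the 5 synthesis and transport genes. With 2 UMIs required for a positive cell, these 7 values were 3.11%, 0, 0, 0, 2.38%, 0 and 0. Both settings leave fewer positive cells by construction. Without the weakly named or shallow clusters, the Maoa ratio at E12.5 was 4.48 and the Th share of neuron-like cells 8.57%; the cause was not tested. Over the alternatives that gave a value, the glia-like to neuron-like ratio of Ddc was 17.4 to 36.4 at E11.5 and 19.0 to 30.5 at E12.5, that of Maoa 1.82 to 2.55 and 3.23 to 4.48, and that of Maob 8.28 to 23.1 and 22.8 to 46.6, and the neuron-like to glia-like ratio of Th at E12.5 was 18.8 to 28.5. The Ddc ratio had no value where neuron-like cells held 0 Ddc UMIs. Th and Dbh met in 0 cells in all alternatives run, which says nothing about stability, since the product of their shares is 0.287 cells. No paired analysis was possible because each stage is 1 library and no test across samples was made. Depth limits the rare genes most: Dbh, Gch1, Slc18a2 and Slc6a2 had 1 UMI in each positive glia-like or neuron-like cell.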

Other observations

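Genes of other amines and of acetylcholine were sparse. Tph1, a tryptophan hydroxylase gene of serotonin synthesis, which feeds the same decarboxylase as Th, had 16 UMIs in the E11.5 neuron-like cells and 0 in the glia-like ones, and 28 and 2 at E12.5, where the neuron-like level was 15.8-fold the glia-like one (3.98 to 137). Hdc, the histidine decarboxylase gene of histamine synthesis, had 14 UMIs in neuron-like and 2 in glia-like cells at E12.5. Ddc itself was at 0.659 CPM in the class where Tph1 was at 3.07 CPM. Slc5a7, the choline transporter gene, had 11 UMIs in glia-like cells and 0 in neuron-like cells of the E11.5 library, and 4 in each class a day later. Chat had 0 and 3 UMIs.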
